A study of Mus musculus with 4 samples.

Results

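The 9 genes described here are Gbp2, Gbp3, Gbp5, Gbp7, Irgm1, Iigp1, Igtp, Irf1 and Irf8, which encode 7 GTPases that interferon gamma induces and 2 transcription factors of the same response. They were taken by name from 55421 gene identifiers in RNA-seq count tables of mouse islet material, and all 9 passed the filter on low counts. The series compares wild-type mice of the inbred strain C57BL/6 fed either normal chow (NCD, 2 libraries) or a high-fat diet (HFD, 2 libraries), a regime under which such mice become obese. The labels name all 4 libraries as islet macrophages. The age and sex of the mice, the length of feeding, the number of mice behind a library and the way macrophages were separated from other islet cells are not stated in the labels. The libraries held 56740720 to 64490097 counts, and the counts of the 9 genes in them ran from 255 to 5763.

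All 9 genes were higher in HFD than in NCD. The largest rises were those of the GTPase genes Iigp1 at 4.13-fold, Gbp2 at 3.73-fold, Gbp5 at 3.16-fold and Gbp3 at 3.11-fold, while Irf8 and the GTPase gene Irgm1 rose least, by 1.48-fold and 1.42-fold. Summed over the 7 GTPase genes, the level went from 85.7 ± 3.93 to 209 ± 4.00 CPM (counts scaled to library size, with TMM scaling between libraries; mean ± SD, n = 2), a fold of 2.44. Over both Irf genes it went from 97.8 ± 1.74 to 157 ± 3.80 CPM, a fold of 1.61. Calls rest on edgeR's quasi-likelihood test with Benjamini-Hochberg adjustment over 21563 genes at an adjusted p under 0.05. Of all genes tested, 17.9% were called higher and 14.5% lower. Nothing states that the libraries were from different mice, so a p-value here speaks only to library-to-library spread, possibly technical.

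Interferon gamma, a cytokine made mainly by T cells and NK cells, binds a receptor that signals through the kinases JAK1 and JAK2. The response includes induction of the transcription factor IRF1, and GAS and ISRE are the DNA elements known from interferon-induced promoters. The induced GTPases fall into guanylate-binding proteins (GBPs) and immunity-related GTPases (IRGs), which gather on membranes around intracellular pathogens, break them and help to start inflammasome signalling in macrophages. Many of these genes also respond to type I interferons.

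The 200 bases before the RefSeq transcript start are shown for the genes whose promoter window was searched. These genes were chosen as interferon-induced, and the motifs are known from such promoters. Matches therefore describe the genes and are no independent evidence. RefSeq windows (GRCm38.p6) were searched for 8 of the 9 genes, 11 windows in all, from 250 bases before to 50 bases after a start. No window of Iigp1 was searched, so nothing is said of its promoter. RefSeq starts can differ from the GENCODE gene coordinates given further on. The stretches of Irgm1 and Gbp5 lie wholly inside those coordinates, and those of Gbp2 and Gbp3 partly. Capitals mark matches to GAS, searched as TTCNNNGAA, and to ISRE, searched as GAAA, any 2 bases and GAAA again, on both strands, 5′ to 3′ on the strand of the gene.
Gbp2 (chr3:142620463-142620662, plus strand): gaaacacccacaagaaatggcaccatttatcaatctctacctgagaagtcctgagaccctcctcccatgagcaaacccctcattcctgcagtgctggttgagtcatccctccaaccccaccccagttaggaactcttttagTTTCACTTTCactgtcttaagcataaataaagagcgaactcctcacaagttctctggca
Gbp3 (chr3:142559844-142560043, plus strand): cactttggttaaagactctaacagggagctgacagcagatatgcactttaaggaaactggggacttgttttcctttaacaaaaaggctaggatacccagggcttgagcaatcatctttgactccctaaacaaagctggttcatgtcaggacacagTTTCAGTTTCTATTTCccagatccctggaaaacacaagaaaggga
Gbp5 (chr3:142496734-142496933, plus strand): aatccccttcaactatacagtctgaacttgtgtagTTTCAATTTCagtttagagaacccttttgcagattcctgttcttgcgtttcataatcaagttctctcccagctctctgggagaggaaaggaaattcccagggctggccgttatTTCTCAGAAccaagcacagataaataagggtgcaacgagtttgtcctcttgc
Gbp7 (chr3:142530136-142530335, plus strand): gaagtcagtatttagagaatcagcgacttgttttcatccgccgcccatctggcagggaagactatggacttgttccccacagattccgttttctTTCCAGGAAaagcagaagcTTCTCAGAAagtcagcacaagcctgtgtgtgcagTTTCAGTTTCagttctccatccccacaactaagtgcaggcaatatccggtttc
Irgm1 (chr11:48871421-48871620, minus strand): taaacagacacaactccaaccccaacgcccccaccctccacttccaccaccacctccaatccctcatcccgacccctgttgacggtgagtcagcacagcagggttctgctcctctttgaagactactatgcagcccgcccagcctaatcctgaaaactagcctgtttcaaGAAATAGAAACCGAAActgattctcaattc
Igtp (chr11:58199356-58199555, plus strand): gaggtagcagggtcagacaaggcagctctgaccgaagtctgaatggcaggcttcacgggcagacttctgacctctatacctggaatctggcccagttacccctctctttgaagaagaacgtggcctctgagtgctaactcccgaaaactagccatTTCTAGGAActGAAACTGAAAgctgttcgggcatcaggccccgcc
Irf1 (chr11:53769814-53770013, plus strand): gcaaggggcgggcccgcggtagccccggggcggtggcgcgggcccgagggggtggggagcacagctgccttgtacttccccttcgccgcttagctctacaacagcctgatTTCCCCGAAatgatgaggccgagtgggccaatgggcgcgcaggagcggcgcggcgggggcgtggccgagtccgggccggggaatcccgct
Irf8 (chr8:120736158-120736357, plus strand): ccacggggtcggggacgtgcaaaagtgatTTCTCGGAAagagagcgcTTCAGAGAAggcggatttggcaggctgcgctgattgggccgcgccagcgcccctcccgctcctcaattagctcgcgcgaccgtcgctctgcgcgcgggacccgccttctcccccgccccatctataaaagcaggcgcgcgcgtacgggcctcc

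Each of the 8 genes had at least 1 match in its first window. Over all mouse genes with windows, 12.9% of 27025 had a match to either motif. ISRE matches stood in all 6 GTPase genes and in neither Irf gene, against 3.99% of genes at large. GAS matches stood in 5 of the 8, namely Gbp5, Gbp7, Igtp, Irf1 and Irf8, against 9.55% of genes at large. In Igtp the GAS match at -45 to -37 and the ISRE match at -34 to -25, counted in bases from the start, lay next to each other, and in Gbp3 and Irgm1 a pair of ISRE matches overlapped. A second GAS match of Gbp5, at -245 to -237, lies outside the stretch printed. Irf8 had a pair of GAS matches, at -171 to -163 and at -153 to -145, and Gbp2 a single ISRE match at -59 to -50. The other windows of Gbp3, Irf1 and Irf8 held no match. Such matches were not particular to the genes described here. Of 6 other GBP and IRG genes with a searched window, 5 had a match, to GAS in 4 and to ISRE in 5. The exception was Ifi47. These are matches of letters, and no binding was measured here.

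**Figure D1:**
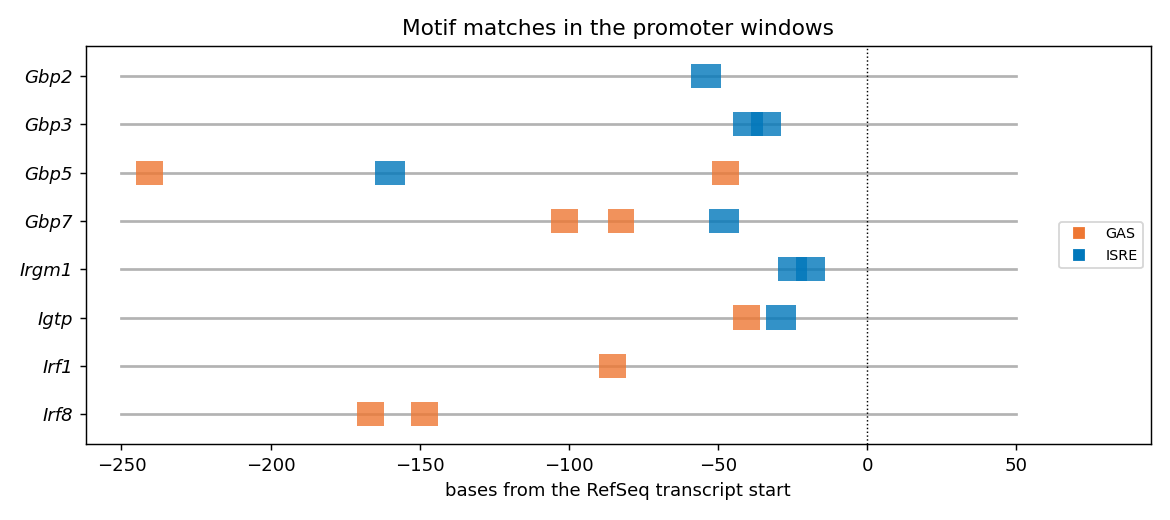
Matches to GAS (orange) and ISRE (blue) in the first RefSeq promoter window of 8 genes, placed by distance in bases from the RefSeq transcript start (dotted line). All 6 GTPase genes carry ISRE matches, and Irf1 and Irf8 carry GAS matches alone.

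The 4 guanylate-binding protein genes lie near each other on chromosome 3 of GRCm38, and all 4 rose. Gbp2 (ENSMUSG00000028270, chr3:142620602-142638008), whose lipid-anchored product coats pathogen vacuoles and bacteria, stood at 12.1 and 13.6 CPM in the NCD libraries and at 47.3 and 48.8 CPM in the HFD libraries. Both HFD libraries lay far above both NCD libraries, with a log2 change of 1.90 ± 0.09 (SE; edgeR adjusted p = 0.000173). Gbp3 (ENSMUSG00000028268, chr3:142560026-142573209), a relative of Gbp2, stood at 8.67 and 9.70 CPM in NCD and at 26.9 and 30.2 CPM in HFD, a log2 change of 1.64 ± 0.12 (edgeR adjusted p = 0.000529). The diets did not overlap, and the HFD libraries differed from each other more than the NCD libraries did.

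Gbp5 (ENSMUSG00000105504, chr3:142493978-142522344), which in mouse macrophages promotes assembly of the NLRP3 inflammasome, had the lowest counts of the 9 genes. It stood at 3.96 and 5.73 CPM in NCD and at 14.8 and 15.9 CPM in HFD, a log2 change of 1.66 ± 0.21 (edgeR adjusted p = 0.00303). The NCD libraries differed from each other, and the log2 change was 1.42 without NCD replicate 1 and 1.95 without NCD replicate 2. Gbp7 (ENSMUSG00000040253, chr3:142530342-142550149), which in mice helps to bring the phagocyte NADPH oxidase to vacuoles, stood at 21.1 and 20.6 CPM in NCD and at 41.0 and 40.8 CPM in HFD. Libraries of a diet were nearly equal for Gbp7, and its log2 change was 0.97 ± 0.07 (edgeR adjusted p = 0.000605). A processed pseudogene, Gm43802, lies within Gbp7 exons and covers 11.3% of their length, with 5 to 10 counts of its own per library.

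The 3 immunity-related GTPase genes rose by unequal amounts. Iigp1 (ENSMUSG00000054072, chromosome 18) encodes IRGA6, an effector that loads onto the Toxoplasma vacuole in mouse cells and disrupts it. It stood at 5.51 and 5.41 CPM in NCD and at 22.8 and 22.3 CPM in HFD, the largest log2 change among the 9 genes at 2.05 ± 0.11 (edgeR adjusted p = 0.000228). Igtp (ENSMUSG00000078853, chr11:58199556-58207591) encodes IRGM3, a regulatory member that keeps effectors off the cell's own membranes. Its levels were 9.26 and 9.17 CPM in NCD, against 21.1 and 19.9 CPM in HFD, with a log2 change of 1.15 ± 0.11 (edgeR adjusted p = 0.00118). The exons of Igtp share 8.01% of their length with the neighbouring Irgm2 on the same strand, so reads of the shared stretch cannot be assigned to either.

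Irgm1 (ENSMUSG00000046879, chr11:48861968-48871683), a regulatory member that mice need to control mycobacteria, stood apart with the smallest rise. Its libraries read 22.4 and 24.2 CPM in NCD, against 32.3 and 34.0 CPM in HFD, a log2 change of 0.51 ± 0.09 (edgeR adjusted p = 0.00892). The diets did not overlap, but the call was lost without HFD replicate 2 (edgeR adjusted p = 0.0511), the only one of 12 alternative fits in which any of the 9 genes missed the threshold (the highest and lowest adjusted p of Irgm1 over these fits were 0.0511 and 0.000201).

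Both transcription factor genes rose less than 2-fold. Irf1 (ENSMUSG00000018899, chr11:53770014-53778374), an activator of many GTPase genes, stood at 53.1 CPM in each NCD library and at 93.1 and 89.0 CPM in HFD, a log2 change of 0.78 ± 0.06 (edgeR adjusted p = 0.000593). Of its exon length 3.4% is shared with Gm17334, a gene on the opposite strand, which had 340 and 377 counts in NCD and 724 and 598 in HFD. Whether counting used strand is not stated, so reads of that stretch cannot be told apart. Irf8 (ENSMUSG00000041515, chr8:120736358-120756694), a lineage factor of monocytes, macrophages and dendritic cells that B cells also express, stood at 45.9 and 43.4 CPM in NCD and at 66.9 and 65.6 CPM in HFD. Neither HFD library came near the NCD range, and the log2 change of Irf8 was 0.57 ± 0.06 (edgeR adjusted p = 0.00227).

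**Figure D2:**
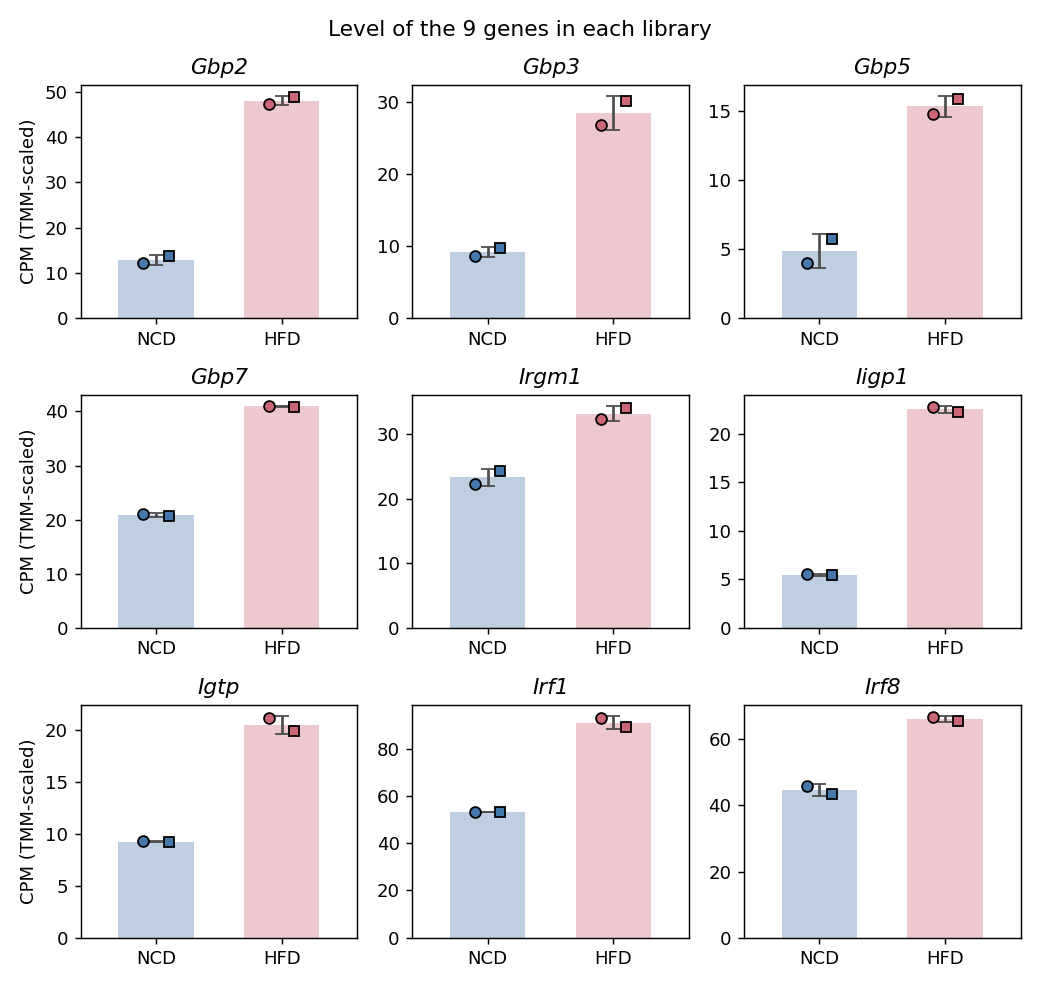
CPM of each gene in each library (circle: replicate 1, square: replicate 2), with bars at the mean and error bars of 1 SD (n = 2) for NCD in blue and HFD in red, each panel on its own axis from 0. In all 9 panels both HFD libraries lie above both NCD libraries.

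Both HFD libraries exceeded both NCD libraries for 9 of 9 genes, an order seen in 34.5% of all genes tested, with the reverse order in 33.2%. The median log2 change of the 9 was 1.15, against 0.003 over all genes tested. A call together with a change of at least 2-fold was met by 5 of the 9, Gbp2, Gbp3, Gbp5, Iigp1 and Igtp, against 10% of all genes tested. The list was proposed with earlier results of these data known, so its counts describe it and are no independent evidence of a direction. With 2 libraries against 2, an exact permutation test of a single gene cannot give a two-sided p below 0.333, and the calls therefore rest on the spread that edgeR shares across genes.

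**Figure D3:**
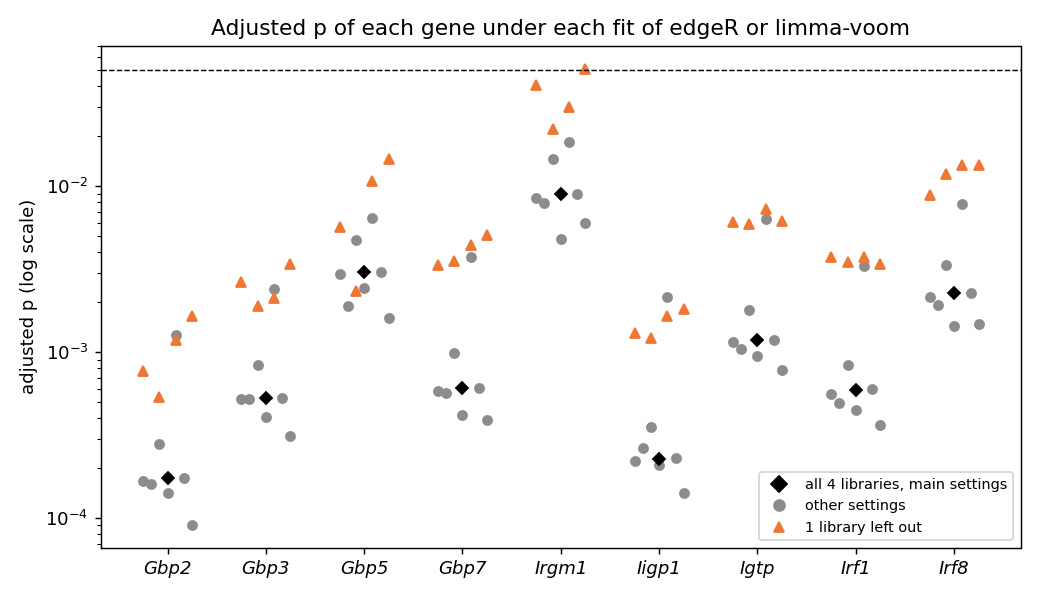
Adjusted p (log axis) of each gene in the main fit (diamond), under other settings (grey) and with 1 library left out (orange triangles), for edgeR and limma-voom, with the threshold of 0.05 dashed. A single point lies above the line, that of Irgm1 without HFD replicate 2, at 0.0511.

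Levels can be compared between genes per length, as CPM per kb of annotated exon. On this scale Irf1 was highest in both diets, at 13.4 ± 0.011 in NCD and 22.9 ± 0.733 in HFD. Gbp5 was lowest in both, at 0.729 ± 0.189 and 2.31 ± 0.113 CPM per kb, with Iigp1 next to it at 0.937 ± 0.012 and 3.87 ± 0.061. In NCD Irf8 followed Irf1 at 6.33 ± 0.253 CPM per kb and Gbp2 came next at 5.12 ± 0.425. In HFD Gbp2 followed Irf1 at 19.1 ± 0.410 CPM per kb, and Igtp at 10.1 ± 0.423 and Irf8 at 9.39 ± 0.126 came behind it. Irgm1 stood above Gbp7 and Gbp3 in NCD (4.01 ± 0.231 against 3.72 ± 0.059 and 2.81 ± 0.223 CPM per kb) and below both in HFD (5.71 ± 0.209 against 7.29 ± 0.020 and 8.75 ± 0.713). No neighbours in either order had overlapping libraries.

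Other GTPase genes, those of both families together with Gvin1, mostly rose. Of 15 such genes 14 were tested, 9 rose and none fell, with a median log2 change of 1.25. Gvin1, a very large interferon-inducible GTPase, rose from 13.9 to 56.8 CPM (log2 change 2.03 ± 0.09, edgeR adjusted p = 0.000112), and Gbp9 from 35.8 to 81.9 CPM (1.19 ± 0.06, edgeR adjusted p = 0.000184). Ifi47, which encodes IRGD, rose from 4.18 to 15.1 CPM and Irgm2, the neighbour of Igtp, from 13.6 to 24.0 CPM (edgeR adjusted p = 0.000671 and 0.0025). Gbp4 rose from 13.3 to 32.6 CPM (edgeR adjusted p = 0.00304). Tgtp1 and Tgtp2, near-identical copies whose counts are uncertain, and F830016B08Rik, a low-count gene with 3.49 and 1.98 CPM in HFD, also rose. The rise of Gbp8, with a log2 change of 0.40 ± 0.09 (edgeR adjusted p = 0.0239), was lost without any 1 of the 4 libraries (0.0617 to 0.1) and with a replicate block (0.0539).

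Gbp6 and Gbp10 are close copies that can share reads, and they did not pass. Gbp6 stood at 134 and 118 CPM in NCD and at 125 and 90.1 CPM in HFD (edgeR adjusted p = 0.336). Gbp10 stood at 28.7 and 33.7 CPM in NCD and at 33.0 and 12.8 CPM in HFD (edgeR adjusted p = 0.48). In both genes HFD replicate 2 lay below the other libraries, and without HFD replicate 1 both were called lower (edgeR adjusted p = 0.0289 and 0.00596). Gbp11 was at 2.36 and 2.35 CPM in NCD and at 1.18 and 1.8 CPM in HFD, and did not pass either (edgeR adjusted p = 0.175). Gm12250, which encodes IRGB10, and Gm4951 had log2 changes of 1.00 ± 0.33 and 2.35 ± 0.79 without passing (edgeR adjusted p = 0.0705 and 0.0735), the latter called by DESeq2 and limma-voom (adjusted p = 0.0261 and 0.0374) and by edgeR without NCD replicate 1 (0.00836). Gbp2b, at most 0.485 CPM in any library, was not tested.

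Among the 7 other interferon regulatory factor genes 3 rose (median log2 change 0.58 over the 7). Irf4, a factor of activated lymphocytes and plasma cells, rose from 8.43 ± 1.11 to 42.1 ± 3.12 CPM, more than any of the 9 genes on the log2 scale (2.32 ± 0.13, edgeR adjusted p = 0.000236). Irf7, the amplifier of type I interferon responses, rose from 8.41 to 24.1 CPM (1.52 ± 0.11, edgeR adjusted p = 0.00057). Irf9, a partner of STAT2, rose from 31.2 to 46.5 CPM, which no longer passed once NCD replicate 2 (edgeR adjusted p = 0.0675) or HFD replicate 1 (0.0586) was dropped.

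The median change over genes of interferon gamma signalling was smaller than that of the 9 genes, and the cytokine transcript itself was barely counted. Ifng had no count in either NCD library and 8 and 4 counts in HFD, below a floor of 12 counts per library, so no fold is given. Among the 12 genes of the cytokine, its receptor and its signalling, 11 were tested, of which 9 rose, none fell, and Ptpn2 and Ptpn6 did not pass (median log2 change 0.46). Ifngr1, the ligand-binding receptor chain, rose from 26.3 to 55.9 CPM, and Ifngr2, the accessory chain, from 48.2 to 66.3 CPM (edgeR adjusted p = 0.00393 and 0.00475). Jak2 rose from 101 to 158 CPM (log2 change 0.65 ± 0.05, edgeR adjusted p = 0.000673). The feedback inhibitors rose most, Socs1 from 1.49 to 8.32 CPM and Socs3, which also answers interleukin-6 type cytokines, from 61.7 to 157 CPM (edgeR adjusted p = 0.00432 and 9.1e-05). The calls of Jak1, Stat2 and Stat3 were each lost when some library was left out (edgeR adjusted p up to 0.0654, 0.105 and 0.0631).

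Most genes of interferon gamma production were higher in HFD. Of 12 such genes 11 rose and Il18 did not pass, and the median log2 change was 2.34 (2.16 when genes without an NCD count take their lower bound). Stat4, which carries the interleukin-12 signal in T and NK cells, rose from 1.56 ± 0.163 to 19.7 ± 3.41 CPM, and Il12rb1, a chain of the interleukin-12 receptor, from 0.315 ± 0.036 to 3.96 ± 0.597 CPM (edgeR adjusted p = 0.000211 and 0.000819). The interleukin-18 receptor genes Il18r1 and Il18rap rose from 1.15 to 6.31 and from 0.348 to 3.49 CPM (edgeR adjusted p = 0.00118 and 0.00129). Il12a and Eomes had no count in NCD and were at least 2.85-fold and 2.88-fold higher in HFD than the floor of 12 counts per library. The bound of Eomes was 1.58-fold without HFD replicate 1 and 4.17-fold without HFD replicate 2. The calls of Il12a, Il12rb2, Il15, Il15ra, Tbx21 and Eomes were each lost when some library was left out.

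Other targets of interferon gamma moved in both directions. Of 24 such genes 14 rose, 2 fell and 8 did not pass, with a median log2 change of 0.74. B2m, the light chain of MHC class I, rose from 498 to 1017 CPM and Icam1, a leukocyte adhesion molecule, from 26.1 to 88.1 CPM (edgeR adjusted p = 7.8e-05 for each). Ciita and Nlrc5, the regulators of MHC class II and class I genes, rose from 3.92 to 19.4 and from 15.6 to 41.8 CPM (edgeR adjusted p = 0.000585 and 0.000683), and Nos2, the inducible nitric oxide synthase, from 3.52 to 10.7 CPM (edgeR adjusted p = 0.00105). Gch1, which makes the cofactor of that enzyme and of others, fell from 396 to 264 CPM, and the tryptophanyl-tRNA synthetase gene Wars fell from 106 to 72.0 CPM (edgeR adjusted p = 0.000717 and 0.00137). Cxcl9, a chemokine taken as a marker of interferon gamma, stood at 1.94 and 2.19 CPM in NCD and at 4.67 and 2.65 CPM in HFD and did not pass (edgeR adjusted p = 0.118), although it was called without HFD replicate 2 (0.0449). The rises of the chemokine gene Cxcl10 and of the antigen-processing genes Psmb9 and Tap2 were each lost when some library was left out (edgeR adjusted p up to 0.0579, 0.116 and 0.138).

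The 11 genes whose products work with these GTPases split by role. All 5 inflammasome genes rose: Nlrp3 from 1.27 to 11.4 CPM, Gsdmd, the pore-forming gasdermin, from 13.7 to 31.5 CPM, Casp4, the lipopolysaccharide-sensing caspase, from 8.04 to 22.0 CPM, Casp1 from 5.28 to 15.7 CPM and Aim2 from 4.19 to 9.13 CPM (edgeR adjusted p = 0.000671, 0.00054, 0.0018, 0.00261 and 0.0182). Aim2 missed the threshold without NCD replicate 1 (0.0711) and without HFD replicate 1 (0.0645). Of 6 genes of the conjugation machinery that places GBPs and IRGs on vacuoles none was called higher and 2 were called lower. Atg5 and Atg3 fell by 0.25 and 0.21 on the log2 scale (edgeR adjusted p = 0.0399 and 0.0428), calls lost without any 1 library, with a replicate block (0.0653 and 0.0622) and under other count filters (0.0577 to 0.0815). Atg7, Atg12, Atg16l1 and Gabarapl2 did not pass. Atg12 had a log2 change of 0.22 and was called higher when genes averaging under 5 CPM were dropped (edgeR adjusted p = 0.0293).

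**Figure D4:**
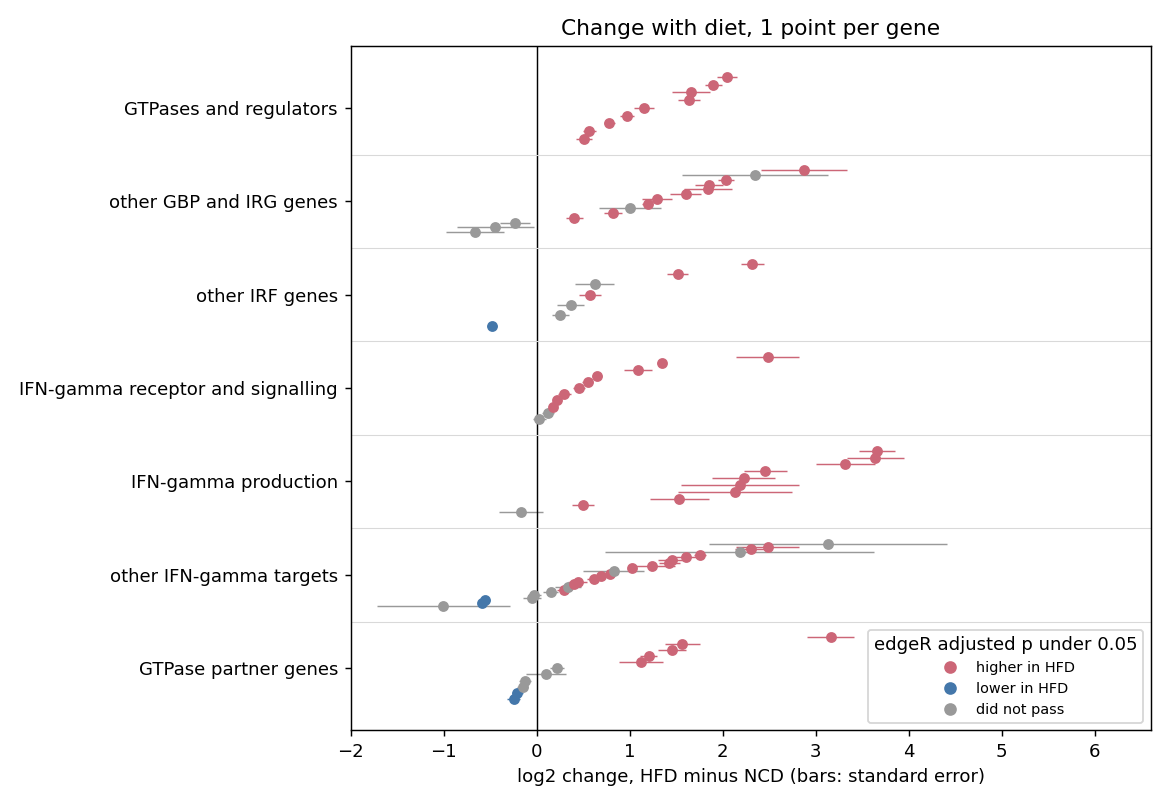
Log2 change between diets with its standard error for the 9 genes (top) and for 6 lists of the pathway, 1 point per tested gene, coloured by the edgeR call; genes without an NCD count are left out. The 9 genes lie between 0.51 and 2.05, and all lists but that of the receptor and signalling include genes on both sides of 0.

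Transcripts of other cell types were abundant in material labelled as macrophage. Ins1, Ins2, Iapp, Gcg, Sst and Ppy, hormone genes of endocrine cells, summed to 29680 to 31390 CPM per library, whereas 10 macrophage markers reached 1047 and 1014 CPM under NCD, then 866 and 869 under HFD. Of these 10 markers 2 were called higher and 5 lower. Both higher calls, of Csf1r and Mertk, were lost with a replicate block (edgeR adjusted p = 0.06 and 0.0714) and without any 1 library, and the lower calls of Cd68, C1qa and C1qb were each lost when some library was left out (up to 0.0711, 0.0979 and 0.0831). The pan-leukocyte gene Ptprc, which encodes CD45, went from 53.7 ± 1.49 up to 132 ± 2.86 CPM. Every one of 6 markers of B cells and plasma cells rose (summing to 52.9 and 53.2 CPM in NCD, 389.7 and 403 in HFD), as did 7 of 9 tested markers of T and NK cells (8.65 and 8.24, against 44.3 and 41.2 CPM). The NK genes Klrb1c and Ncr1 were not tested. Both had no count in NCD. In HFD Klrb1c had 9 and 21 counts and Ncr1 had 4 and 13, each with HFD replicate 1 below the floor of 12 counts, so no fold is given. Of 5 tested dendritic cell markers 3 rose (19.3 and 17.9, against 137 and 116 CPM), with Cd209a at 0 throughout. That sum leans on Ccr7, which alone stood at 7.72 CPM in NCD and 92.2 CPM in HFD. Clec9a and Siglech did not pass. Among 6 endothelial markers 5 rose and 1 fell (1069 and 1106, against 1493 and 1478 CPM). Of 4 tested monocyte and neutrophil markers 3 rose (7.21 and 5.65, against 49.7 and 46.8 CPM), with S100a8 and Ly6g at 0 in every library. All 6 fibroblast and all 6 acinar markers rose as well, to 1093 and 1120 and to 2199 and 2445 CPM in HFD from at most 73.7 and 332 in NCD. The part of these cells in the rise of the 9 genes was not tested, and in bulk RNA fewer cells of a type and less RNA per cell cannot be told apart.

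Set against other transcripts of the same library, the 9 genes divided. Relative to the summed macrophage markers all 9 were higher in both HFD libraries, by 4.91-fold for Iigp1, 4.42-fold for Gbp2 and 1.69-fold for Irgm1. Relative to Ptprc, 4 were higher and 5 lower in both HFD libraries. Iigp1 per Ptprc went from 0.101 and 0.103 to 0.170 and 0.171, Gbp2 from 0.222 and 0.259 to 0.352 and 0.375, and Gbp3 from 0.158 and 0.184 to 0.2 and 0.232. Gbp5 was the closest of the higher ones, at 0.0722 and 0.109 in NCD and 0.110 and 0.122 in HFD. Irgm1 per Ptprc fell from 0.408 and 0.460 to 0.241 and 0.261, and Irf8 from 0.839 and 0.825 to 0.498 and 0.504. Irf1, Gbp7 and Igtp were lower per Ptprc by folds of 0.696, 0.797 and 0.902. Relative to the T and NK cell sum and to the B cell and plasma cell sum all 9 were lower in HFD, with folds of 0.281 to 0.816 and of 0.190 to 0.553. Both sums lean on a single gene. Cd4 alone stood at 6.53 CPM in NCD and 19.4 CPM in HFD. Jchain alone stood at 29.2 CPM in NCD and 236 CPM in HFD. In the macrophage sum the largest gene was Lyz2, at 377 CPM in NCD and 277 CPM in HFD, called lower (edgeR adjusted p = 0.000998). These ratios are descriptions without a test.

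**Figure D5:**
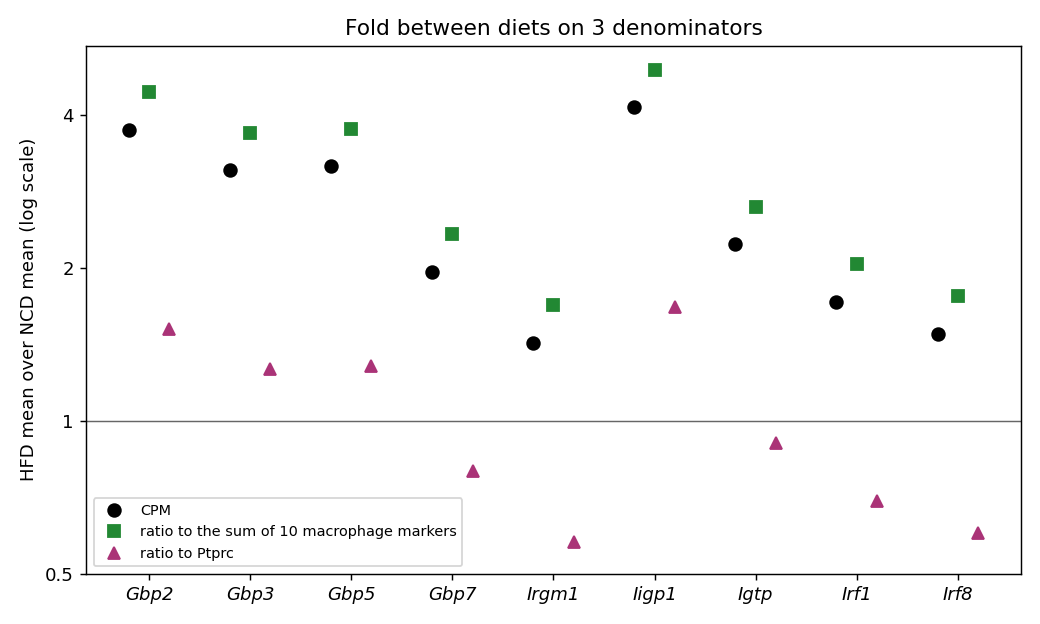
HFD mean over NCD mean of each gene (log axis) for CPM (black circles), for its ratio to the sum of 10 macrophage markers (green squares) and for its ratio to Ptprc (purple triangles). All 9 genes lie above 1 on the first 2 scales, and on the Ptprc scale 4 lie above and 5 below.

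Genes with the most similar profile were sought among 11962 protein-coding genes by the distance of their centred log2 levels over the 4 libraries from the mean profile of the 9. The nearest were Ctla2a, Mcm5, Tpm4, Prdx1 and Pgk1, at distances of 0.0268 to 0.0507, where the mean profile itself spans 1.21 between diets. Ctla2a rose from 27.6 ± 1.6 to 64.6 ± 1.28 CPM and Pgk1 from 249.8 ± 3.30 to 571 ± 3.80 CPM. Within a distance of 0.5 lay 787 genes, so with 4 libraries such likeness is common.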

How the data were processed

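RNA of 4 libraries was analysed, 2 per diet, grouped by their titles. Per the labels' protocols, frozen islets gave RNA by TRIzol extraction, and the stranded library kit came from KAPA. The authors deposited whole-number counts per Ensembl gene, 1 table per library. The submitters' processing notes name HISAT, featureCounts 1.5.0, DESeq 1.8.3 and GRCm38; the sources used here do not give how strand and multi-gene reads were handled. Among low counts, multiples of 4 outnumbered adjacent values by a factor of 1.57 to 1.64, so the precision of a single count is unsure, and the floor was set at 12 counts, which is 3 such steps. Floors cover counting error only.

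Symbols, coordinates and exon lengths came from GENCODE M21 (GRCm38), which named 55240 of 55421 identifiers. The quasi-likelihood test of edgeR 4.0.16 (R 4.3.3) was run with TMM scaling and no replicate block on genes kept by filterByExpr at a minimum count of 10. Standard errors are the log2 change over the square root of F. The common biological coefficient of variation was 19.1%. CPM use TMM-scaled library sizes, except sums over marker lists, which use totals. Profile distances used log2(CPM + 0.5). Alternatives were DESeq2 1.42.0 (size factors, Wald test), limma-voom (limma 3.58.1), other count filters, a replicate block, leaving out each library, other library sizes, counts divided by 4 and a 2-fold minimum.

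The 9 genes and all lists were chosen with earlier results of these data known. Besides the 9, the text names all other GBP and IRG genes on the list, and Gvin1. It also names up to 6 genes per pathway list with the smallest p, genes without a count in a diet, and the 5 of most similar profile. Other genes named, such as Wars, Cxcl9, Atg3 and those that missed the threshold or lost a call, were chosen after their values were seen. Some genes that this rule names are not reported here.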

Additional observations from a re-analysis of the deposited data

How the results depend on the processing

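All 9 genes kept a positive log2 change in each of 12 alternative fits, and 8 of 9 stayed past the threshold in each, the exception being Irgm1 without HFD replicate 2. The count of the 9 called higher was 8 to 9 when each library was left out, and none was called lower. With a replicate block 9 were called higher, and over all genes 3252 were higher and 2583 lower, against 3860 and 3123 without it. Replicate numbers in the titles pair no samples by any label, and the deviations of same-numbered libraries had a correlation of 0.00211 across genes. When each library was left out, 2710 to 3224 genes were called higher and 2015 to 2174 lower, with the fewest lower calls (2015) without HFD replicate 1, and each of these fits has fewer samples. When a diet kept 1 library, it was assumed to vary like the other. Requiring a change of at least 2-fold left 5 of the 9 genes, and 2160 higher and 287 lower over all genes. Depth limits Ifng, whose counts lay below the floor.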
